A study of Rattus norvegicus with 25 samples.

Results

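Livers of rats that had grown up without pyrroloquinoline quinone (PQQ) and then received it by injection were compared with livers of rats that had eaten it since before birth. The comparison took every array labelled as PQQ repletion (4) and every array labelled as PQQ supplemented (6), which made 10 of the 25 arrays of the series. Supplemented arrays 5 and 6 differed by far less than other replicate pairs and were averaged as 1 sample, so 4 repletion samples stood against 5 supplemented samples, 9 of the 23 samples left after averaging. Neither the labels nor the file headers say which arrays were run together, but 3 of the 6 chow arrays had most of their flagged spots in common with the repletion arrays and 3 did not. Chow rats of these 2 sets were therefore compared in the same way.

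All rats were male Sprague-Dawley rats, and each array held liver RNA of 1 rat. Repletion rats were offspring of dams fed a PQQ-free purified diet, named basal ASD in the labels, through the last 10 days of gestation. They stayed on that diet and, from 6.5 weeks of age, received PQQ intraperitoneally at 1.5 mg/kg every 12 h for 36 h. Supplemented rats and their dams ate the same base diet with PQQ added, an amount that the labels give both as 2 mg and as 6.67 nmol per g of diet, which are not equal. Chow rats ate a standard laboratory diet, and deficient rats (6) stayed on the PQQ-free diet. Depletion rats (3) were supplemented rats moved to the PQQ-free diet for 48 h. The 2 main groups thus differed in early diet, in route, in dose and in handling, and no vehicle-injected rats were analysed here. A difference between the groups therefore cannot be told apart from an effect of injection. The labels name no cage, litter or hour of sampling.

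PQQ is a redox-active quinone that bacteria make as a cofactor of their dehydrogenases and that mammals take in with food. In rodents its removal from the diet has been linked to poor growth and fewer liver mitochondria, and in mouse hepatoma cells it has been reported to act on CREB and on Ppargc1a, the coactivator of mitochondrial biogenesis. Liver is the organ in which fatty acids are oxidised, cholesterol and bile acids are made, foreign compounds are cleared and most plasma proteins are secreted, and many of these functions follow feeding and the hour of the day.

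The arrays were 1-colour CodeLink rat arrays with 9911 gene probes, read as spot intensity and analysed here as normalised log2 intensity. A difference of 1 is a doubling of that intensity. It includes an added offset of 50, so differences of dim probes are compressed. Between 83.3% and 89.9% of probes were above background on an array. Every array carried the hepatocyte markers Alb, Apoa1 and Cyp2c11 at or above the 98.2th percentile of its probes. Flagged spots fell into 5 array sets, since arrays of a set shared a fraction of 0.646 to 0.956 of them and arrays of different sets shared at most 0.327. Set 5 held all 4 repletion arrays and chow arrays 4 to 6. The supplemented arrays lay in sets 1, 2 and 3, and chow arrays 1 to 3 lay in set 1, so no set held both repletion and supplemented rats. The group and the array set cannot be told apart within the comparison itself. Chow arrays 1 and 2 were averaged like supplemented arrays 5 and 6, because the spread of their differences was 0.108 and 0.110 in these pairs and 0.202 to 0.376 in the other 27 pairs within both a group and an array set. Values by sample are given in the order of the array numbers, with the averaged supplemented pair last. Supplemented array 1 had a dim patch, and genes with a spot in it are named where they occur.

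Of 3749 genes tested, 375 were higher (10.0%) and 460 were lower (12.3%) in repletion than in supplemented liver at an adjusted p of 0.05 (limma, Benjamini-Hochberg over all probes). The median gene differed by -0.02 on the log2 scale. The samples of the groups did not overlap for 1010 genes (26.9%). The same fit applied to chow 4-6 against chow 1-3, rats of one diet, called 121 of 3738 genes (3.24%), 66 higher (1.77%) and 55 lower (1.47%). At probe level these were 169 of 5143 (3.29%), 94 higher (1.83%) and 75 lower (1.46%). Chow differences were less precise, with a median standard error over probes of 0.207 against 0.152 for the repletion comparison. They rested on 3 samples against 2, or on fewer where a spot was missing.

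Most of the genes that differed between repletion and supplemented rats moved the same way between the chow sets. Of the 833 called genes with a value in both comparisons, 780 (93.6%) had a chow difference of the same sign, and 97 of these were called in chow too. Over all probes, called or not, 3856 of 5141 (75.0%) had the same sign. Across these genes the differences had a Pearson correlation of 0.871, given as a description, since genes are not independent replicates. That value joins higher and lower genes. It was 0.688 within the called higher genes, 0.458 within the called lower genes and 0.656 over all probes. The 2 comparisons share no sample but share array sets 1 and 5. The supplemented arrays of sets 2 and 3 had no chow array in their set. A chow difference, small or large, therefore does not cover those sets. The median called gene kept 0.689 of its repletion difference in chow. Testing the repletion difference less the chow difference gave 0 genes at an adjusted p of 0.05 (limma), with 150 of 3738 (4.01%) at an unadjusted p under 0.05. A fit with array set as a fixed block could link the groups only through the chow sets, and just 1 supplemented sample, the array with the dim patch, shared a set with chow. Each block value is thus repletion minus chow 4-6 plus chow 1-3 minus supplemented sample 1. It is given below as a value and does not test the 5 supplemented samples. In this fit 45 of 3680 genes (1.22%) were called, 44 higher (1.20%) and 1 lower (0.0272%). At probe level these were 64 calls, 58 of them with spots near the dim patch, and leaving such spots out left 0 calls (limma). With array set as a random block, 17 probes were called in place of 1194. Every direction given below was measured between array sets as well as between groups.

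**Figure D1:**
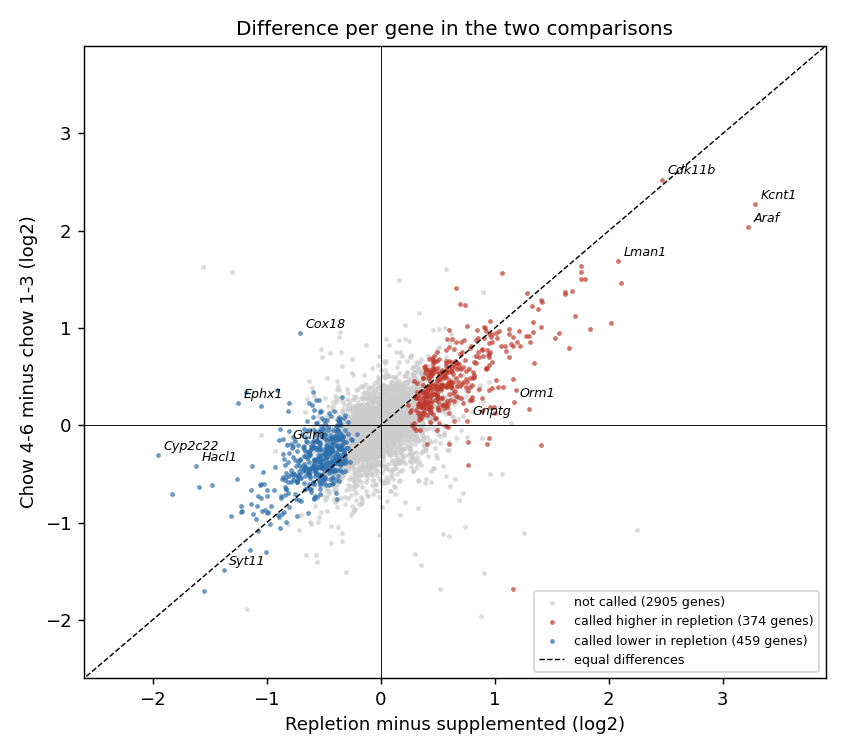
Log2 difference of each tested gene in repletion minus supplemented (horizontal axis) against its log2 difference in chow 4-6 minus chow 1-3 (vertical axis). The cloud runs along the diagonal, with a same-sign chow difference for 780 of 833 called genes, while Cyp2c22, Hacl1, Ephx1 and Gnptg lie nearer to the horizontal line of no chow difference.

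Some genes differed between repletion and supplemented rats with little difference between the chow sets. Of the 833 called genes with a chow value, 93 had a chow difference under 0.25 of their own in size. Of these, 29 were higher and 64 lower in repletion. The chow differences were imprecise, with a median standard error of 0.207 over probes, so the cut does not make these genes a separate class. None of these passed the test of the difference between the 2 differences after adjustment. The unadjusted p of that test is therefore given for each main example. The examples were picked by the size of the same differences, so this p describes them and is no independent support. Over all genes, 4.01% had an unadjusted p under 0.05 in that test (limma).

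Cyp2c22, a cytochrome P450 of the Cyp2c family, had log2 intensities of 10.84, 11.64, 11.01 and 10.98 in the repletion rats, against 12.42, 12.25, 13.52, 13.61 and 13.53 in the supplemented rats. All 4 repletion values lay below those of every other rat in the series, with a gap of 0.618 to the next sample. The difference of -1.95 (95% interval -2.55 to -1.35) was a 3.86-fold lower level, with an adjusted p of 0.000114 by limma. In chow 4-6 the gene had 12.82, 13.56 and 12.90, against 13.34 and 13.47 in chow 1-3, and these ranges overlapped. The repletion difference less the chow difference was -1.64 (95% interval -2.66 to -0.63, unadjusted p = 0.0029 by limma). The block value, with 1 supplemented sample, was -0.996 (adjusted p = 0.558 by limma). The 6 deficient rats spanned 12.36 to 13.54, level with the supplemented rats.

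Hacl1, the peroxisomal lyase of fatty acid alpha-oxidation, had 11.46, 11.90, 11.65 and 11.89 in repletion, against 13.44, 13.02, 13.45, 13.62 and 13.20 in supplemented rats. The groups were more than 1 log2 unit apart at their closest values. The fitted difference was -1.62 ± 0.18 (SE, adjusted p = 3.82e-06 by limma), a 3.08-fold lower level. Chow 4-6 averaged 12.79 and chow 1-3 averaged 13.21, a difference of -0.42 in the same direction, just over 0.25 of the repletion difference. The repletion difference less the chow difference was -1.20 (unadjusted p = 0.0006 by limma). Hacl1 was also called with array set as a random block (-1.69, adjusted p = 0.0245 by limma). That fit also called Cdk11b (2.44, adjusted p = 8.89e-05 by limma), Atxn7l3b, Lman1 and Pdlim5, genes that were called between the chow sets as well. A call in that fit therefore does not separate the group from the array set. The 3 depletion rats had 11.73 to 12.16, close to the repletion rats, and the 6 deficient rats had 13.25 to 14.09.

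Ephx1, the microsomal epoxide hydrolase, measured 12.75, 12.43, 13.09 and 13.14 in repletion and 13.86, 13.74, 14.13, 14.78 and 14.01 in supplemented rats. The difference was -1.25 ± 0.22 (SE, adjusted p = 0.000507 by limma) and the chow difference was 0.23, in the opposite direction (unadjusted p = 0.0007 for the difference between them, by limma). A second, dimmer Ephx1 probe gave -0.97 and missed the threshold (adjusted p = 0.0743 by limma). The deficient rats had 12.90 to 13.65 and overlapped the repletion rats. By mean, repletion was the lowest group (12.85) and supplemented the highest (14.10). The means of the deficient, depletion and chow groups lay between them, at 13.35 to 13.65.

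Gnptg, the gamma subunit of the phosphotransferase that tags lysosomal enzymes, was higher in repletion, with 10.10, 10.24, 10.28 and 10.05 against 9.48, 9.55, 9.52, 9.24 and 9.24 in supplemented rats. The spread within each group was narrow, and the difference of 0.76 ± 0.10 (SE) had an adjusted p of 2.75e-05 by limma. Chow 4-6 averaged 9.93 and chow 1-3 averaged 9.88. It exceeded the chow difference by 0.71, with an unadjusted p of 0.00031 and an adjusted p of 0.387 (limma), the lowest among these examples.

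Src, the non-receptor tyrosine kinase, had 12.13, 12.21, 12.15 and 11.84 in repletion, against 11.01, 11.20, 10.84, 9.35 and 10.95 in supplemented rats. Supplemented rat 4 stood well below the rest of its group, as did chow rat 5, at 9.24, in its own. The difference of 1.41 ± 0.40 (SE) had an adjusted p of 0.0146 by limma, and it exceeded the chow difference of -0.21 at an unadjusted p of 0.025. All 4 repletion values lay above those of every other rat, by at least 0.297.

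**Figure D2:**
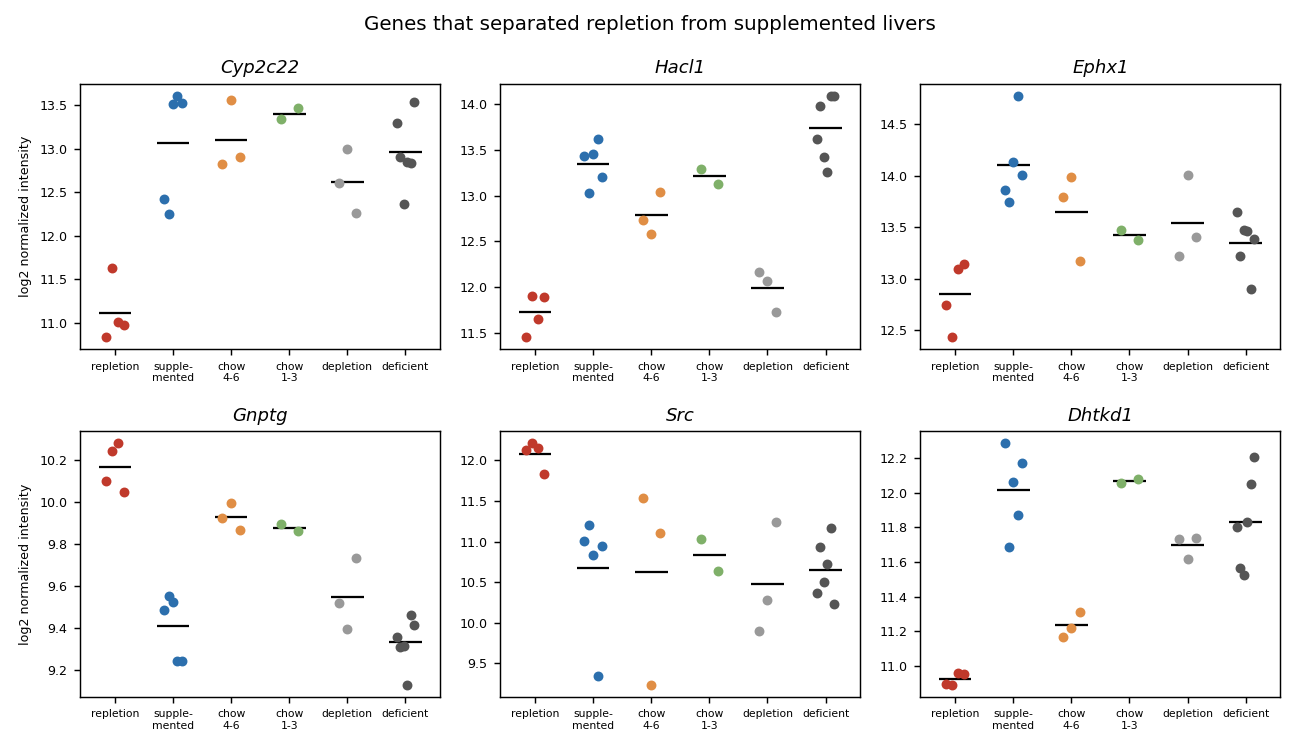
Normalised log2 intensity of Cyp2c22, Hacl1, Ephx1, Gnptg, Src and Dhtkd1 in each sample of 6 groups, with dots for samples and a line at the group mean. Repletion lies apart from supplemented in every panel. The means of chow 4-6 and chow 1-3 lie close together except for Dhtkd1 (11.23 against 12.07) and, less so, Hacl1. For Src the chow 4-6 samples spread from 9.24 to 11.54.

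Orm1, an acute phase glycoprotein of plasma, was also higher in repletion with a small chow difference. It had 12.40, 11.72, 11.76 and 11.01 in repletion, against 10.50, 10.58, 10.20, 10.42 and 11.10 in supplemented rats. Repletion rat 4 fell within the supplemented range, and the difference was 1.17 (adjusted p = 0.00153 by limma) with a chow difference of 0.24. The chow rats of both sets, at 11.60 to 12.51 and at 11.76, were level with the repletion rats. Aspg, an asparaginase, differed by 0.96 (chow 0.19). Ethe1, the mitochondrial persulfide dioxygenase, differed by 0.89 (chow 0.15), with overlapping groups and no call without repletion rat 1 (adjusted p = 0.0609 by limma). The palmitoyltransferase Zdhhc20 (1.30, chow 0.17), the ubiquitin ligase Cblb (0.93, chow -0.19), the matrix protein Dpt (0.77, chow -0.17) and Mien1 (0.99, chow 0.18) were also higher. For Cblb, only 1 chow 1-3 sample had a value. The thyroid hormone receptor Thrb (1.01, chow 0.13) and the transcription factor Erg (0.95, chow -0.13) were called higher too, with spots in or beside the dim patch of supplemented array 1.

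Among the lower genes of this kind was Gclm, the modifier subunit of the first enzyme of glutathione synthesis. It had 11.30, 11.20, 11.18 and 11.92 in repletion, against 12.09, 12.04, 12.40, 12.29 and 12.30 in supplemented rats. Its difference was -0.83 ± 0.16 (SE, adjusted p = 0.00112 by limma), a second probe gave -0.85 and was also called, and the chow difference was -0.20. Ywhah, a 14-3-3 protein, was lower by -0.77 ± 0.12 (SE, adjusted p = 0.000175 by limma) with a chow difference of -0.12. Haus4, a subunit of the augmin complex of the mitotic spindle, differed by -1.05 (chow 0.20) and Tubb5, a beta-tubulin, by -0.88 (chow -0.04). The phosphatase Ptp4a1 (-0.89, chow -0.15), the ubiquitin ligase Nedd4l (-0.85, chow -0.14), the helicase Helz2 (-0.80, chow -0.06), Sorbs2 (-0.79, chow -0.19) and Ammecr1l (-0.75, chow -0.17) were also lower. Ammecr1l was not called without repletion rat 1 (adjusted p = 0.0572 by limma).

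A description of a different kind used all 23 samples. The 4 repletion values lay above all 19 other samples for 14 of 3743 genes (0.374%) and below all of them for 29 (0.775%), and 11 and 22 of these were called higher and lower. Klf6, a zinc finger factor, was among those above and was picked after its values were seen. Klf6 averaged 9.64 in repletion and 8.61 in supplemented rats, a difference of 1.03 (adjusted p = 0.0128 by limma), with a chow difference of 0.39.

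Below all others, Dhtkd1, a mitochondrial subunit of the oxoadipate dehydrogenase of lysine breakdown, had 10.89, 10.89, 10.96 and 10.96 in repletion, against 12.28, 11.68, 12.06, 11.87 and 12.17 in supplemented rats. The repletion rats were nearly identical, and the difference of -1.09 ± 0.13 (SE) had an adjusted p of 1.26e-05 by limma. Chow 4-6 were lower as well, by -0.83, so the greater share of this difference was also seen between the chow sets. Cdo1, the cysteine dioxygenase that begins taurine synthesis, had 13.19, 13.09, 13.04 and 13.14 in repletion, against 13.99, 13.58, 13.59, 13.48 and 13.83 in supplemented rats. It differed by -0.58, with a chow difference of -0.36. Dhtkd1 and Cdo1 were likewise picked after their values were seen.

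Some large differences were called between the chow sets as well. Cdk11b, a cyclin-dependent kinase of transcription and splicing, had 9.20, 8.68, 8.70 and 8.97 in repletion, against 6.34, 6.60, 6.41, 6.40 and 6.34 in supplemented rats. Its difference of 2.47 ± 0.14 (SE, adjusted p = 5.27e-10 by limma) was matched by a chow difference of 2.52 (adjusted p = 1.15e-07), and the block value was 0.02. Lman1, the cargo receptor that carries coagulation factors out of the endoplasmic reticulum, had 11.19, 11.15, 11.20 and 10.71 in repletion, against 9.02, 9.37, 9.03, 8.73 and 8.74 in supplemented rats. Its chow difference was 1.69 against a repletion difference of 2.08, and both were called. Atxn7l3b (2.11, chow 1.46), the RNA helicase Ddx24 (1.76, chow 1.50), the lipid phosphatase Plpp3 (1.76, chow 1.58), the splicing factor Srrm2 (1.68, chow 1.38) and the PDZ and LIM protein Pdlim5 (1.76, chow 1.64, a spot in the patch) were called in both comparisons. For Atxn7l3b and Srrm2 a second probe of the gene was not called and gave 0.07 and -0.13.

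A further 4 large differences were uneven among rats. Kcnt1, a sodium-activated potassium channel, had 9.09, 9.63, 11.04 and 11.03 in repletion, against 7.07, 7.38, 6.91, 6.12 and 7.11 in supplemented rats. Araf, a RAF family kinase, had 10.83, 10.80, 12.22 and 12.45 in repletion and 7.48 to 8.83 in supplemented rats. Grp, the gastrin-releasing peptide, and Tshr, the thyrotropin receptor, had the same order, with repletion rats 1 and 2 below rats 3 and 4. The differences were 3.28 for Kcnt1, 3.22 for Araf, 1.79 for Grp and 1.62 for Tshr. In chow 4-6 all 4 genes were low in rat 5 (6.35, 7.90, 6.02 and 6.80) and high in rats 4 and 6, so their chow differences of 1.35 to 2.27 were not called. Ibsp, a bone matrix sialoprotein (2.02, chow 1.06), and Mgll, the monoacylglycerol lipase (1.65, chow 0.80), were higher with no overlap between the groups.

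On the lower side, Syt11, a synaptotagmin of vesicle traffic, had 8.29, 8.96, 8.80 and 8.86 in repletion, against 9.52, 10.12, 10.03, 10.43 and 10.41 in supplemented rats. The difference was -1.38 and the chow difference was -1.49, and the block value, with 1 supplemented sample, had the opposite sign (0.69). The potassium channel Kcnh8 (-1.14, chow -0.81, called in both), the actin regulator Vasp (-1.31, chow -0.93), the ubiquitin ligase Peli1 (-1.22, chow -0.83) and the cAMP-responsive exchange factor Rapgef4 (-1.26, chow -0.56) were lower with no overlap. Ahctf1, a nuclear pore protein, had 8.30, 8.44, 8.31 and 8.99 in repletion, against 10.55, 9.70, 10.36, 10.10 and 9.81 in supplemented rats, a difference of -1.60 with a chow difference of -0.63.

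**Figure D3:**
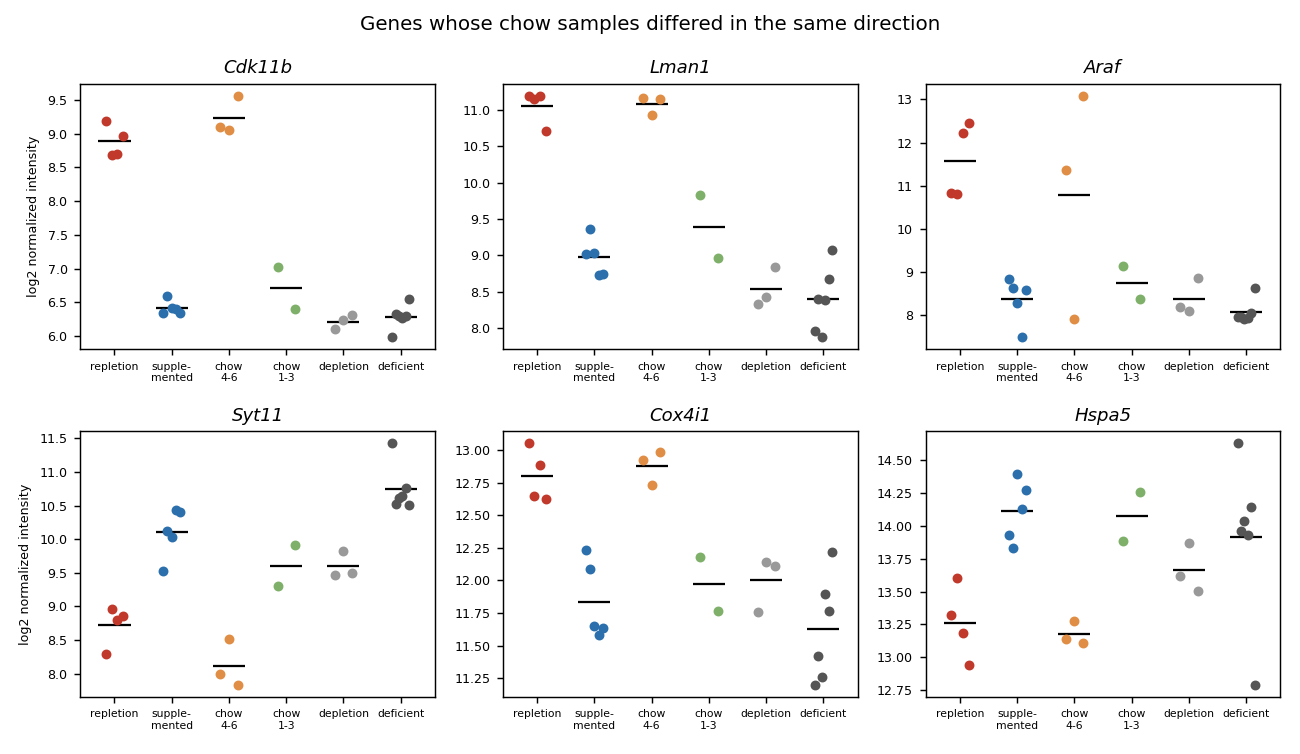
Normalised log2 intensity of Cdk11b, Lman1, Araf, Syt11, Cox4i1 and Hspa5 in each sample of 6 groups, with dots for samples and a line at the group mean. Chow 4-6 lie with repletion and chow 1-3 with supplemented for Cdk11b, Lman1, Syt11, Cox4i1 and Hspa5, while for Araf chow 4-6 spread from 7.90 to 13.09.

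Of 31 nuclear-encoded genes of oxidative phosphorylation tested, 9 were higher and 1 was lower in repletion, beside 10.0% higher and 12.3% lower over all genes, with a median difference of 0.35 against -0.02 over all genes. The same list had a median of 0.27 between the chow sets, with 0 subunits called in either direction (limma), and 0.02 under the fixed block without patch spots. Cox4i1, a subunit of cytochrome c oxidase, had 13.05, 12.64, 12.89 and 12.63 in repletion, against 12.23, 12.09, 11.65, 11.58 and 11.63 in supplemented rats. Its difference was 0.97 (adjusted p = 0.00131 by limma), its chow difference was 0.91, and its block value, which rests on supplemented sample 1, the highest of the 5, was -0.34. The ATP synthase subunits Atp5mc2 (0.84, chow 0.64), Atp5mc1 (0.81, chow 0.49, a spot in the patch) and Atp5f1d (0.58, chow 0.57) were higher, and the block values of Atp5mc2 and Atp5f1d were -0.04 and -0.27. Uqcrc2, a core subunit of complex III, was the lower member. It had 11.66, 11.65, 11.70 and 11.62 in repletion, against 12.24, 12.11, 12.10, 12.29 and 12.16 in supplemented rats, a difference of -0.52 with a chow difference of -0.42.

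Of 23 ribosomal protein genes, 6 were higher and 0 lower (limma), beside 10.0% higher and 12.3% lower over all genes. The list median was 0.27 in both comparisons, 0.07 under the fixed block without patch spots and 0.66 with the deposited value table as given. Rps18 had 14.83, 14.78, 14.75 and 14.58 in repletion, against 13.94, 14.20, 13.86, 14.04 and 13.74 in supplemented rats. Its difference of 0.78 (adjusted p = 0.000154 by limma) was larger than its chow difference of 0.39, and its 4 repletion values exceeded all others in the series. Rps20 (0.65, chow 0.35), Rps26 (0.63, chow 0.62) and Rpsa (0.75, chow 0.56, a spot in the patch) were also higher. Genes of this family have many near-identical pseudogenes, and what else their probes bind was not tested.

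The list of mitochondrial biogenesis and redox signalling genes holds genes through which PQQ has been proposed to act. Of its 24 genes, 16 were on the array and 10 were tested at their brightest probe. Of these 10, 0 passed the adjusted threshold (limma), beside 10.0% higher and 12.3% lower over all genes, with a median of 0.02. Ppargc1a and Creb1 were not among them, so the count says nothing about these 2 genes. Tfam, the packaging factor of mitochondrial DNA, had 10.21, 10.10, 10.14 and 10.06 in repletion, against 10.58, 10.24, 10.28, 10.38 and 10.04 in supplemented rats, a difference of -0.18 ± 0.12 (SE). Nfe2l2, the regulator of antioxidant genes, differed by -0.04 ± 0.18 (SE). The mitochondrial transcription factor Tfb2m (0.12), the mitochondrial polymerase Polg (0.08), the deacetylase Sirt3 (0.16), the redox sensor Park7 (0.17) and thioredoxin Txn1 (0.22) had overlapping groups. Txnip, the thioredoxin inhibitor, differed by -0.39 with overlap and a spot in the patch, and without patch spots it was called lower (-0.66, adjusted p = 0.0102 by limma). Ucp2, a mitochondrial carrier, had 7.71, 7.65, 7.76 and 7.67 in repletion, against 8.12, 7.88, 7.78, 8.005 and 8.33 in supplemented rats. These values did not overlap, and the difference of -0.33 had an adjusted p of 0.0996 by limma. Stat3 was not called by its brighter probe (-0.22) but its dimmer probe was higher by 2.00 (adjusted p = 6.39e-05 by limma), so the direction for this gene is not settled.

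**Figure D4:**
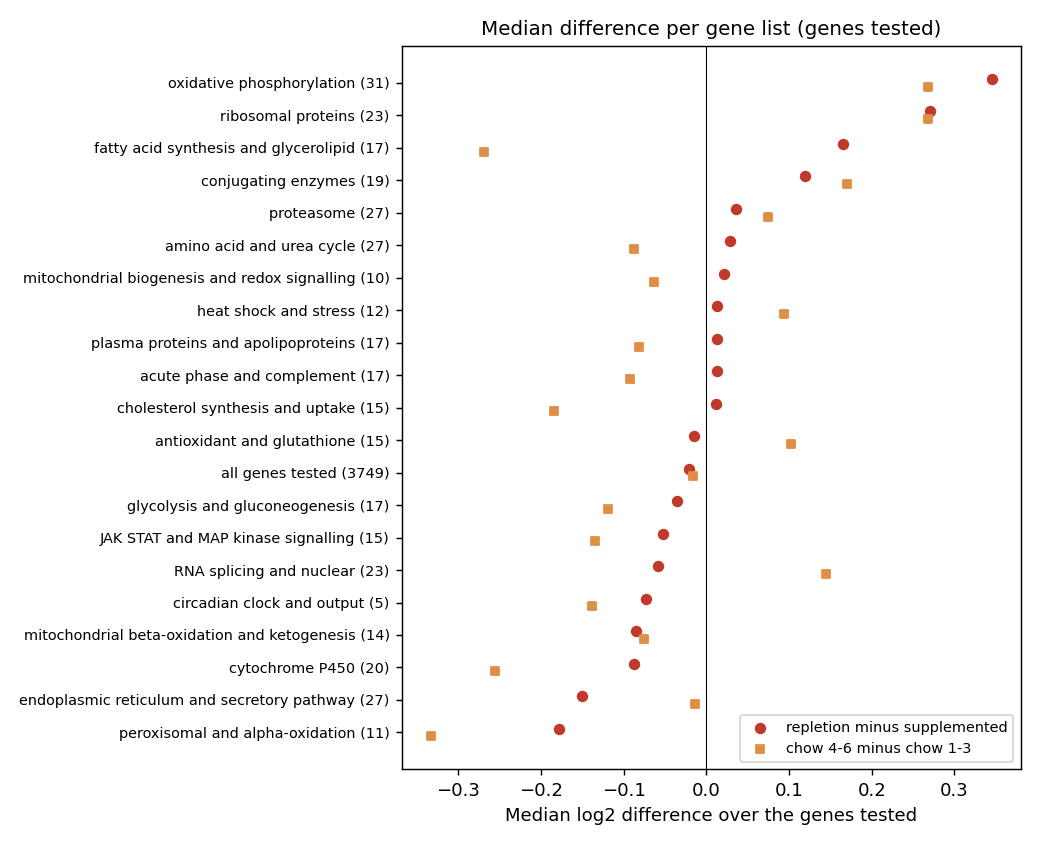
Median log2 difference of each gene list in repletion minus supplemented and in chow 4-6 minus chow 1-3. The lists of oxidative phosphorylation and of ribosomal proteins lie highest in repletion minus supplemented, at 0.35 and 0.27, with chow medians of 0.27 for both.

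Cholesterol synthesis genes were lower at some steps and not at others. Of 15 tested, 0 were higher and 4 were lower, beside 12.3% lower over all genes, and the list median was 0.01. Sqle, squalene epoxidase, had 7.99, 8.04, 8.57 and 8.11 in repletion, against 9.25, 9.04, 9.38, 9.10 and 9.40 in supplemented rats. Its difference was -1.06 (adjusted p = 0.00218 by limma), with a chow difference of -0.62 in the same direction. Idi1 was lower by -0.77 (chow -0.21, adjusted p = 0.014 by limma), and was not called without repletion rat 2 (adjusted p = 0.0639). Msmo1 was lower by -0.97 over 4 supplemented samples, but keeping its flagged spots turned it to 0.42, and its chow difference had no value. The neighbouring enzymes Fdps (0.13) and Cyp51 (-0.17) had overlapping groups and were not called. Scarb1, the receptor that takes up cholesterol from high-density lipoprotein, was higher, at 10.81, 10.91, 10.95 and 10.84 in repletion against 10.34, 10.17, 10.19 and 10.29 in the supplemented samples measured. It was picked after its values were seen, had no value in chow 1-3, and was not called without repletion rat 3 (adjusted p = 0.0504 by limma).

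Genes of fatty acid synthesis and glycerolipid formation split, with 3 of 17 higher and 2 lower, beside 10.0% higher and 12.3% lower over all genes. Acsl1, a long-chain acyl-CoA synthetase, was higher by 0.75 (adjusted p = 0.00901 by limma), with 10.59, 10.41, 10.70 and 10.55 in repletion against 9.90, 9.74, 9.67, 9.71 and 10.02 in supplemented rats and a chow difference of 0.39. Acsl3, with a spot in the patch, was lower by -0.56 (chow -0.25), and the acyltransferase Dgat1 was higher by 0.32 (chow 0.12). Lpin1, a phosphatidate phosphatase and transcriptional coactivator, had 10.24, 10.02, 10.00 and 10.17 in repletion, against 11.71, 10.59, 11.31, 10.79 and 11.79 in supplemented rats. Its difference of -1.13 (chow -0.42) just passed the threshold (adjusted p = 0.0498 by limma) and missed it under most other settings (adjusted p = 0.117 without supplemented sample 5). Fasn, the fatty acid synthase, had 12.45, 12.90, 12.48 and 12.33 in repletion, against 10.48, 12.998, 11.69, 10.88 and 11.87 in supplemented rats. Supplemented rat 2 was as high as the repletion rats, and the difference of 0.96 (chow -0.50) had an adjusted p of 0.0547 by limma.

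Of 11 peroxisomal genes, 1 was higher and 1, Hacl1, was lower, beside 10.0% higher and 12.3% lower over all genes. The import factor Pex14 was higher by 0.64 (adjusted p = 0.00985 by limma) with a chow difference of 0.05. Of 14 genes of mitochondrial beta-oxidation and ketogenesis, 0 were higher and 1 was lower. That gene was Hadhb, of the trifunctional protein, at -0.39 with a chow difference of -0.46 and a spot in the patch, and it was not called without patch spots (adjusted p = 0.0572 by limma). Acadm, the medium-chain acyl-CoA dehydrogenase, had 12.14, 12.09, 12.24 and 12.35 in repletion, against 12.91, 12.38, 12.43, 12.45 and 12.41 in supplemented rats, and was not called (-0.31, adjusted p = 0.0761 by limma).

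Among enzymes of foreign compound and bile acid metabolism, 0 of 20 cytochrome P450 genes were higher and 2 were lower, Cyp2c22 and Cyp1a2, beside 10.0% higher and 12.3% lower over all genes. Cyp1a2 was lower by -0.58, with a chow difference of -0.36 and a block value of 0.02. Cyp7a1, which starts bile acid synthesis, was uneven, with 7.84, 10.16, 9.69 and 9.36 in repletion against 9.39, 9.73, 11.83, 10.90 and 12.23 in supplemented rats. The groups overlapped, and the difference of -1.56 was not called (adjusted p = 0.0699 by limma). The chow difference was 1.63 in the opposite direction, from 11.28, 11.36 and 11.53 in chow 4-6 against 9.52 and 9.99 in chow 1-3. Cyp2c7 differed by -0.93 and was not called. Of 19 conjugating enzymes 1 was higher and 2 were lower, with Gstt2 at 0.56 (chow 0.50) and Sult1b1 at -0.63 (chow -0.37).

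Of 15 antioxidant and glutathione genes, 2 were higher and 2 lower, near the shares over all genes (10.0% and 12.3%). Sod1, the cytosolic superoxide dismutase, was higher by 0.40 and Prdx2 by 0.44, with chow differences of 0.36 and 0.41, and their block values were -0.08 and -0.19. Prdx1, a peroxiredoxin, was lower by -0.71, with 12.43, 12.41, 12.95 and 12.47 in repletion against 13.37, 12.94, 13.23, 13.34 and 13.48 in supplemented rats. Its chow difference was -0.50. The mitochondrial sulfide quinone oxidoreductase Sqor had 8.82, 8.93, 8.91 and 8.38 in repletion, against 10.51, 10.37, 10.81, 9.02 and 10.50 in supplemented rats. Supplemented rat 4 was close to the repletion rats, the difference was -1.48 (chow -0.61, adjusted p = 0.0403 by limma), and the call was lost when any of 8 samples was left out (adjusted p up to 0.0965). The deficient rats ranged from 7.33 to 10.69 for this gene.

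Of 17 acute phase and complement genes, 2 were higher and 0 lower, beside 10.0% higher and 12.3% lower over all genes. The higher genes were Orm1 and Masp2, a protease of the lectin pathway (0.50, chow 0.17, block value -0.01). Of 17 plasma proteins and apolipoproteins, 1 was higher and 3 were lower, beside the same shares. Apoa2 had 15.13, 15.13, 15.24 and 15.24 in repletion, against 14.32, 14.88, 14.23, 14.70 and 14.93 in supplemented rats (0.57, adjusted p = 0.00378 by limma). Chow rats of both sets were at 15.04 to 15.24, level with repletion, and the chow difference was -0.01. Serpind1, or heparin cofactor, (-0.59, chow -0.58), plasminogen Plg (-0.53, chow -0.31) and paraoxonase Pon1 (-0.45, chow -0.25) were lower. Alb differed by -0.17 (adjusted p = 0.0647 by limma).

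Of 27 genes of amino acid metabolism and the urea cycle, 2 were higher and 1 was lower, beside 10.0% higher and 12.3% lower over all genes. Agxt, the alanine-glyoxylate aminotransferase, was higher by 0.59 with a chow difference of -0.02, and Gls2, the liver glutaminase, by 0.77 with a chow difference of -0.41, both with overlapping groups. Hal, the histidine ammonia-lyase, had 9.22, 9.11, 9.20 and 9.17 in repletion, against 10.61, 9.85, 9.75, 10.34 and 10.38 in supplemented rats (-1.01, adjusted p = 0.00019 by limma). Its chow difference of -0.87 was called too. Of 17 genes of glycolysis and gluconeogenesis, 0 were higher and 2 were lower. Pfkfb1, the liver enzyme that sets fructose bisphosphate levels, was lower by -0.77 (chow -0.49), and Gys2, the liver glycogen synthase, by -0.58 (chow -0.75, block value 0.32).

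Of 27 genes of the endoplasmic reticulum and secretory pathway, 6 were lower and 2 were higher, beside 12.3% lower and 10.0% higher over all genes, with a median of -0.15 in repletion minus supplemented and -0.01 in chow 4-6 minus chow 1-3. Hspa5, the main chaperone of the compartment, had 13.32, 13.61, 13.18 and 12.95 in repletion, against 13.93, 13.83, 14.39, 14.13 and 14.27 in supplemented rats. Its difference was -0.84 (adjusted p = 0.0149 by limma), its chow difference was -0.89, and its block value had the opposite sign (0.23). The coat protein Copb1 (-0.62, chow -0.48) and the transport SNARE Sec22b (-0.61, chow -0.25) were lower. Without repletion rat 4, Hspa5 and Copb1 were not called (adjusted p = 0.0513 and 0.0705 by limma). Besides Lman1, the translocon protein Ssr2 was higher (0.54, chow 0.57). Of 27 proteasome genes, 2 were higher and 2 lower, both below those shares, with Psmb1 at 0.86 (chow 0.89) and Psmc1 at -0.40 (chow -0.11).

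Of 23 genes of RNA splicing and the nucleus, 1 was higher and 4 were lower, beside 10.0% higher and 12.3% lower over all genes. Scaf11 was higher by 1.06 at its brightest probe (chow 1.57, block value -0.72), and another probe of the gene was lower by -1.45, so its direction is not settled. Nup155 (-0.73, chow -0.26) and Hnrnpf (-0.52, chow -0.11) were lower. In the JAK, STAT and MAP kinase list 3 of 15 genes were higher and 3 lower, beside the same shares. Jak3, a cytokine receptor kinase, had 8.96, 8.99, 9.46 and 8.63 in repletion, against 7.57, 8.22, 7.77, 8.26 and 8.49 in supplemented rats. It was higher by 0.95 at one probe and by 0.79 at another, both called, with chow differences of 0.36 and 0.25. Map3k12 was higher by 1.20 (chow 0.86) but not called without repletion rat 3 (adjusted p = 0.0556 by limma), and the STAT inhibitor Pias1 was lower (-0.55, chow -0.42). Of 12 heat shock and stress genes, 1 was higher, Hspe1 at 0.45 (chow 0.53), and 1 was lower, Dnaja2 at -0.53 (chow -0.25), near the shares over all genes.

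Of 5 clock and clock output genes tested, 0 were called in either direction between repletion and supplemented rats (limma), beside 22.3% called over all genes. A list of 5 genes is too small to set this count apart from that share. The 5 genes are named here after their values were seen. Bmal1, the activator of the clock, had 8.86, 8.43, 8.67 and 7.55 in repletion and 8.25, 8.35, 8.81, 8.53 and 7.94 in supplemented rats, a difference of 0.00 (95% interval -0.50 to 0.51). Dbp, an output factor, differed by -0.07 (95% interval -0.77 to 0.63). Cry2 differed by 0.01 and Nr1d2 by -0.08, and Usp2, a rhythmic deubiquitinase, by -0.30, each with overlap. The deficient rats stood apart from both groups, with Bmal1 at 6.94 ± 0.16, Dbp at 13.38 ± 0.16 and Nr1d2 at 12.29 ± 0.20 (SD, n = 6 each), against 8.38 ± 0.58, 11.01 ± 0.57 and 11.46 ± 0.24 in repletion (SD, n = 4 each). Bmal1 ranged from 6.76 to 7.19 and Dbp from 13.20 to 13.59 in deficient rats, and no repletion or supplemented rat fell within either range. Cdkn1a, a cell cycle inhibitor, had 10.999, 11.30, 9.23 and 8.74 in repletion, against 9.94, 8.92, 10.23, 10.53 and 10.58 in supplemented rats, so the repletion group was split. Its brighter probe differed by 0.03 while a dimmer probe was lower by -0.98.

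**Figure D5:**
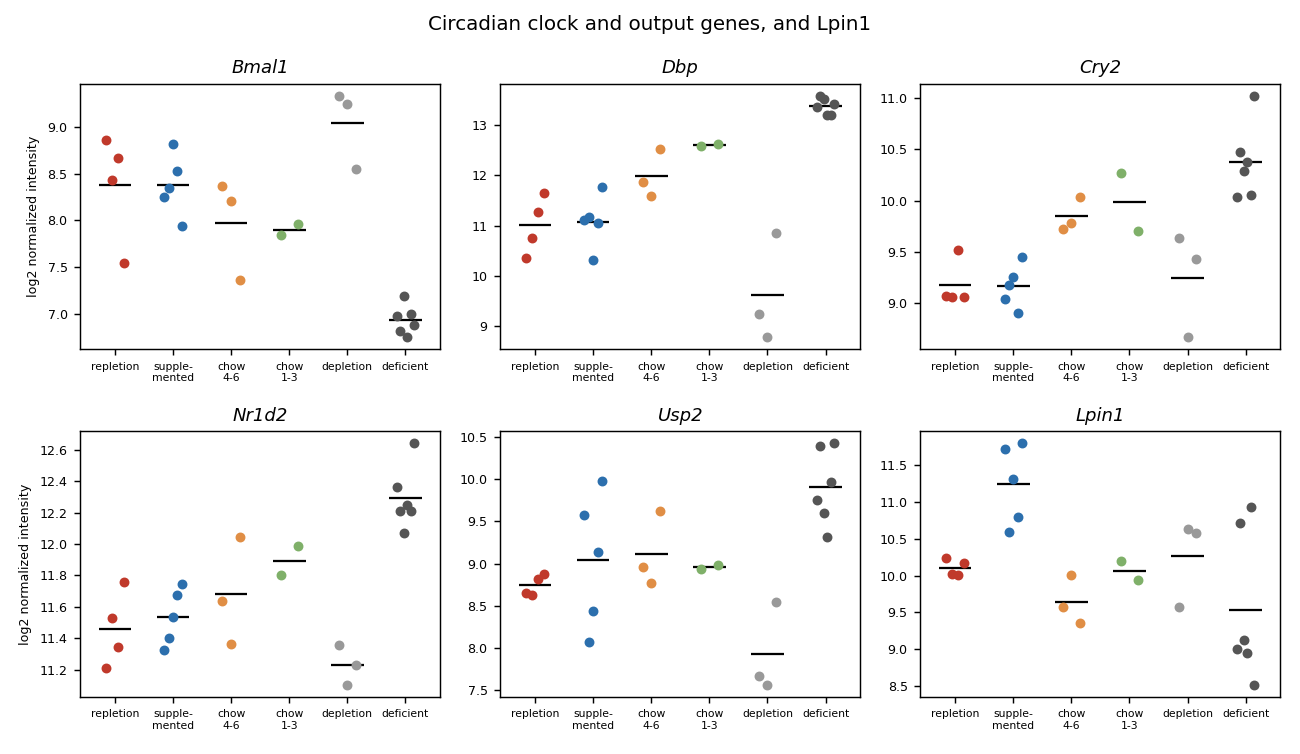
Normalised log2 intensity of Bmal1, Dbp, Cry2, Nr1d2, Usp2 and Lpin1 in each sample of 6 groups, with dots for samples and a line at the group mean. Repletion and supplemented overlap for the first 5 genes, and deficient rats lie lower for Bmal1 (mean 6.94) and higher for Dbp (mean 13.38) than both.

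In whole liver, fewer cells of a type and less RNA per cell cannot be told apart. Of the markers of hepatocytes, 0 of 4 were called in either direction (limma), beside 10.0% higher and 12.3% lower over all genes. The marker lists below are also short and are to be read beside the same shares. Of 6 Kupffer cell and macrophage markers, 1 was higher and 1 lower, and these were subunits of the same complement protein. C1qc was higher by 0.62, with a chow difference of 0.89 and a block value of -0.15, and C1qb was lower by -0.46 (chow 0.12), while C1qa differed by 0.34 and was not called. The log2 of the summed level of 7 Kupffer cell and macrophage probes was 13.41 to 13.66 in repletion and 13.53 to 13.65 in supplemented rats. It was 13.893 to 14.075 in chow 4-6 and 13.529 to 13.705 in chow 1-3. Of 5 endothelial markers, 0 were higher and 1 was lower, Flt1 at -0.59 (chow -0.16, adjusted p = 0.00276 by limma). Summed over 6 endothelial probes, the level was 11.93 to 12.66 in repletion against 12.38 to 12.71 in supplemented rats. The chow sets overlapped for this sum (12.381 to 12.749 in chow 4-6, 12.37 to 12.465 in chow 1-3). Among 8 proliferation markers on the array only Mki67 passed the filter on dim probes. A probe could pass through the group where it was brighter, here the supplemented rats, so this 1 lower call does not stand for the other markers. Mki67 had 7.13, 6.39, 7.06 and 7.05 in repletion, against 7.84, 8.23, 8.45, 8.12 and 7.80 in supplemented rats. The difference was -1.18 (adjusted p = 0.0199 by limma), with a chow difference of 0.34 in the opposite direction. Leaving out repletion rat 2 gave an adjusted p of 0.0725. The summed level of 7 proliferation probes was 9.36 to 9.83 in repletion and 9.80 to 10.30 in supplemented rats, ranges that overlapped at their ends. Chow 4-6 had 9.78 to 10.10 and chow 1-3 had 9.51 to 9.54, so the chow sets differed for this sum as well. The part of cell makeup in the other differences was not tested.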

How the data were processed

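Liver RNA of 25 rats was measured on 1-colour CodeLink UniSet Rat I arrays, each read as a deposited file with 1 row per spot. Per the file headers, the authors' scanner output gives each spot's mean intensity, its local background intensity and a quality flag, and the depth of an array is limited to its 9911 gene probes. The deposited value table, used as an alternative on the log2 scale, holds the authors' processed signal on a linear scale, and no source used here states how it was made. Groups came from the sample labels.

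Spots with flag 1 were set missing. Intensity was corrected with normexp (offset 50), quantile normalised and put on the log2 scale in limma 3.58.1 (R 4.3.3). Figures and joins used Python 3.11.15, pandas 2.3.3, NumPy 2.4.6 and matplotlib 3.10.9. Near-identical arrays of a group were averaged. Probes entered the test when 50% or more of the repletion or the supplemented samples exceeded their array's median, and a gene was taken as its brightest tested probe. A fit over all 23 samples with 6 groups (chow split in 2) gave repletion minus supplemented, chow 4-6 minus chow 1-3, and the difference between them (lmFit, eBayes, Benjamini-Hochberg over probes, threshold 0.05). The procedure was also run on simulated data with independent probes, few of them shifted. That run does not test it on shifts of many probes, as seen between array sets here. Gene names came from the platform annotation updated through rat gene identifiers. Of the probes, 7356 had 1 symbol, 86 had several and 2469 had none, and probes of these last kinds were left unnamed.

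Named genes were up to 15 higher and 15 lower called genes without overlap, up to 12 each with a chow difference under 0.25 of the main one, up to 4 called and 2 uncalled genes of each list, and every redox list gene, with those without a described role left out. Some genes that the rule names are not reported here. The members and lists were chosen with earlier results of these data known. Replicate numbers did not pair the samples. Alternatives covered background, scaling, filter, flags, blocks, weights and left-out samples.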

Additional observations from a re-analysis of the deposited data

Results flagged for a closer look

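In 258 checks of a named gene within the repletion or the supplemented group, 17 (6.59%) held a sample farther from the rest than its group's range allows at 95%, and chance gives about 1 in 20. Among repletion rats, rat 4 was low for Lman1 (10.71) and high for Gclm (11.92), rat 1 was low for Vasp (7.12) and Cyp1a2 (13.54), and rat 2 was low for Mki67 (6.39) and Masp2 (11.61). Repletion rat 3 was high for Prdx1 (12.95) and Cry2 (9.52). Among supplemented samples, sample 4 was low for Src (9.35) and Sqor (9.02), sample 2 was high for Cdk11b (6.60) and sample 3 was low for Dpt (9.56). Sample 1 was low for Thrb (7.17), whose spot lay in its dim patch, and high for Dgat1 (9.26) and Acadm (12.91). The averaged sample 5 and 6 was high for Flt1 (9.32) and low for Cox18 (9.53).

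Bacterial control probes, which no comparison used, differed between array sets. On the 7 arrays of set 5, which are the repletion arrays and chow arrays 4 to 6, the median signal over that of the other sets was 0.0669 for FIXB, 0.105 for GND, 0.0210 for HISB and 0.0233 for LEUB. The highest FIXB signal of set 5 was 800.1 and the lowest of the other sets was 3039, so these did not overlap. Of the other bright controls, ARAB (0.324) and ENTF (0.328) were also lower in set 5, with ranges that overlapped. Such controls are usually added to the sample at known amounts, and what was added here is not given in the sources used here.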

How the results depend on the processing

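At probe level, repletion minus supplemented gave 1194 calls, chow 4-6 minus chow 1-3 gave 169, and the difference between them gave 0 (limma), with 218 of 5141 at an unadjusted p under 0.05. The first count was 64 with array set as a fixed block, 0 with that block and patch spots missing (chosen after seeing the data), 17 with array set as a random block, 1964 with array weights and 542 when a 1.5-fold difference was also required. Leaving out 1 sample at a time gave 857 to 1199. The chow count was 307 with no filter, 261 with probes above background in every array of one group, 288 with flag 1 spots kept, 378 with near-identical arrays counted as 2 samples, 1 with the random block and 644 with array weights. It was 14 without chow 3, 55 without chow 6, 70 without the chow 1 and 2 sample, 73 without chow 4 and at most 164 without another sample. The difference between the 2 differences gave 2 calls with array weights (Nupr1 1.68 and Cox18 -1.62), 1 without supplemented sample 5 (Cox18 -1.81) and 0 without repletion rat 1 or any other sample. With the replicate block the counts were 1351, 138 and 0, but same-numbered samples had correlations of only -0.082 to 0.132, so the numbers did not pair them. The deposited value table as given had 58.2% of main calls higher against 45.9%, and 84.7% of chow calls higher against 55.6%, with the chow median of all probes at 0.108.

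The fixed block rests on 1 supplemented sample, supplemented 1, the only one in a set with chow, so a sign that turned there does not test the group difference. Such signs were Plpp3 (-0.15), Syt11 (0.69), Cox4i1 (-0.34), Atp5mc2 (-0.040), Atp5f1d (-0.27), Dgat1 (-0.10), Acsl3 (0.20), Hadhb (0.059), Cyp1a2 (0.024), Sod1 (-0.084), Prdx2 (-0.19), Masp2 (-0.0060), Serpind1 (0.30), Gys2 (0.32), Hspa5 (0.23), Scaf11 (-0.72) and C1qc (-0.15). With patch spots also missing the values were the same, except that Plpp3, Acsl3 and Hadhb had none. Msmo1 turned to 0.42 with flag 1 spots kept. The cause was not tested.

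Of 103 called genes named here, 80 kept the call without any 1 sample. The highest adjusted p (limma) of the other 23 was found without repletion rat 1 for Ammecr1l (0.0572), Atp5f1d (0.103), Atp5mc1 (0.0602), Cyp1a2 (0.109), Dgat1 (0.171), Ethe1 (0.0609), Gls2 (0.109), Gstt2 (0.0746), Hadhb (0.14) and Rpsa (0.0602). It was found without rat 2 for Acsl3 (0.104), Gys2 (0.0563), Idi1 (0.0639) and Mki67 (0.0725), and without rat 3 for Map3k12 (0.0556), Mien1 (0.0753), Prdx2 (0.103) and Scarb1 (0.0504). It was found without rat 4 for Copb1 (0.0705), Hspa5 (0.0513) and Sqor (0.0965), and without supplemented sample 5 for Lpin1 (0.117) and Msmo1 (0.0597).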

Other observations

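Of 833 called genes, 53 (6.36%) had a chow difference of the opposite sign. Cox18, an assembly factor of cytochrome c oxidase, had 9.24, 9.45, 9.63 and 9.47 in repletion, against 10.40, 10.38, 10.19, 10.29 and 9.53 in supplemented samples, with a difference of -0.71 (adjusted p = 0.00885 by limma) and a chow difference of 0.95. It was the 1 gene called in both comparisons with opposite signs. Nupr1, a stress-responsive nuclear protein, had 12.25, 11.96, 12.16 and 12.14 in repletion, against 11.86, 11.41, 11.26, 11.84 and 11.28 in supplemented samples. Its difference of 0.60 was not called (adjusted p = 0.0812 by limma), while its chow difference was -1.14. Both genes were picked after their values were seen.

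Ednrb, the endothelin receptor of type B, was 1 of the genes also called with array set as a random block (1.29, adjusted p = 0.00315 by limma). It had 8.49, 8.24, 8.47 and 8.31 in repletion, against 7.03, 7.05, 7.11, 7.08 and 6.88 in supplemented samples, and chow 4-6 exceeded chow 1-3 by 0.65. Top2b, a DNA topoisomerase, had 8.06, 8.21, 7.99 and 8.25 in repletion, against 9.15, 9.17, 9.09, 9.08 and 9.13 in supplemented samples, with a chow difference of -0.91. Atp2c1, the calcium and manganese pump of the Golgi, had 7.57, 7.71, 7.35 and 7.53 in repletion, against 8.20, 8.005, 8.37, 8.41 and 8.35 in supplemented samples. The repletion values lay below all others measured. Its chow difference of -0.38 rested on chow rat 6 alone in chow 4-6. Of 255 genes with more than 1 tested probe, 5 had called probes of opposite sign.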
